A study of Homo sapiens with 6 samples.

Results

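The insulin-like growth factor (IGF) binding protein genes examined here were IGFBP1 to IGFBP6 and IGFALS, 7 genes whose regions were taken from the RPB1 and phospho-Ser2 RPB1 ChIP-seq lists by the gene symbol that the authors assigned to each region. Of 271336 regions in the 4 lists, 28 carried the symbol of a member. They fell on IGFBP1, IGFBP4, IGFBP6 and IGFALS, and no region in any list was assigned to IGFBP2, IGFBP3 or IGFBP5. The cells were HepG2, a line derived from a human liver tumor, left untreated in all groups. The labels call the SHP-1 WT cells only WT. The SHP-1 KO cells carried a CRISPR knockout of PTPN6, the gene that encodes the tyrosine phosphatase SHP-1. Per the study's methods, cells stayed untransfected or received a nontargeting guide or guides against exons of the phosphatase domain. Single-cell cultures were then grown. Which cultures were used for ChIP-seq is not stated, so a difference between the cells can also be a difference between clones. For each cell type 1 library was made with an antibody against RPB1, the largest subunit of RNA polymerase II, and 1 with an antibody against RPB1 phosphorylated on serine 2 of its C-terminal repeats, a form found on elongating polymerase. Each antibody and cell type has 1 library, so the spread between replicates is not known and no test was run.

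IGFs circulate and act in tissues bound to high-affinity binding proteins, which hold them away from the IGF1 receptor and prolong their life in plasma. IGFBP1 is secreted by hepatocytes, falls when insulin rises and is a classic target of FOXO1 in liver. IGFBP3 forms with IGF and the acid-labile subunit, the product of IGFALS, the large complex that carries most IGF in plasma. IGFALS is a liver gene induced by growth hormone through STAT5, the transcription factor that the study places beside SHP-1. IGFBP2 is a second abundant plasma carrier, IGFBP4 is an inhibitor of IGF action that the protease PAPPA cleaves, IGFBP5 binds extracellular matrix, and IGFBP6 prefers IGF2 over IGF1.

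The values below are fold enrichments over the input DNA of the same cells at the summit of a region, a ratio given by the peak caller MACS2. The lists held 46045 (WT) and 41605 (SHP-1 KO) RPB1 regions and 102674 (WT) and 81012 (SHP-1 KO) phospho-Ser2 RPB1 regions, and since the lists give no reads per region, sequencing depth is unknown. A promoter RPB1 region was assigned to 7 of 8 hepatocyte marker genes in both cell types, without APOA1, and to 1 of 6 markers of other cell types, PECAM1. The strongest RPB1 region at PTPN6 had a fold enrichment of 24.0 in WT cells and 17.2 in SHP-1 KO, a value that says nothing of SHP-1 protein and so does not check the labels. Over the 12877 genes with an RPB1 region in both lists, the median ratio of SHP-1 KO to WT of the strongest region was 0.742, a shift of -0.43 on the log2 scale. For phospho-Ser2 RPB1 the median over 10870 genes was 0.936, or -0.09 on the log2 scale. The ratios of members below are therefore given relative to these medians or beside them.

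Counted by assigned symbol, region numbers differed between members and, for RPB1 only, between the cells, whose RPB1 lists held 46045 (WT) and 41605 (SHP-1 KO) regions. The WT RPB1 list held 10 member regions, 4 at IGFBP1, 4 at IGFALS, 1 at IGFBP4 and 1 at IGFBP6. The SHP-1 KO RPB1 list held 6, with 3 at IGFBP1 and 1 each at IGFALS, IGFBP4 and IGFBP6. Both phospho-Ser2 RPB1 lists held 6, with 1 at IGFBP1 and 5 at IGFALS. The same 4 genes therefore had RPB1 regions in both cell types, and IGFBP1 and IGFALS alone among the members had phospho-Ser2 RPB1 regions.

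**Figure D1:**
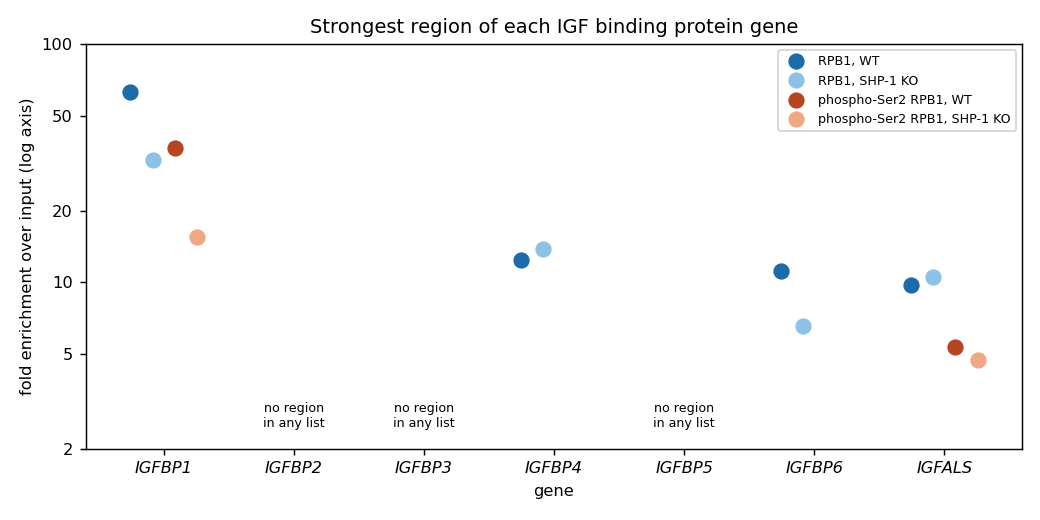
Fold enrichment over input (log axis) of the strongest region of each gene in each of the 4 libraries, 1 point per library. IGFBP1 lies highest in every library, from 62.6 for RPB1 in WT cells to 15.5 for phospho-Ser2 RPB1 in SHP-1 KO cells, IGFBP4 and IGFBP6 have RPB1 points only, and IGFBP2, IGFBP3 and IGFBP5 have none.

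IGFBP1, the insulin-suppressed binding protein of hepatocytes, was the most strongly occupied member with both antibodies. In GENCODE release 44 the gene occupies chr7:45888360-45893660 (hg38, forward strand) and is 5301 bp long. In WT cells an RPB1 region of 7325 bp, from 45887493 to 45894817, covered the whole gene with a fold enrichment of 62.6, rank 711 of 46045 by fold enrichment and rank 165 by length. In SHP-1 KO cells the matching region, from 45888265 to 45894755, covered the whole gene as well, with a fold enrichment of 32.5 and rank 2418 of 41605. The upstream edge lay 867 bp before the gene start in WT cells and 95 bp before it in SHP-1 KO, whereas the downstream edges lay 1157 and 1095 bp past the gene end. The summit was just inside the gene in both lists, 187 bp after the gene start in WT cells and 205 bp after it in SHP-1 KO.

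The SHP-1 KO to WT ratio of the RPB1 fold enrichment at IGFBP1 was 0.519, a log2 difference of -0.95. This ratio was as low or lower in 12.4% of the 12877 genes. Relative to the median of all genes the ratio was 0.699, or -0.52 on the log2 scale, which is short of a 1.5-fold difference. The 20 genes ranked next to IGFBP1 by WT fold enrichment, from rank 695 to 715, had ratios from 0.443 to 1.37 with a median of 0.714, and 2 of them had a ratio below that of IGFBP1. Among genes, IGFBP1 stood at rank 705 of 14164 (WT) and at rank 2362 of 13459 (SHP-1 KO).

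Phospho-Ser2 RPB1 at IGFBP1 was among the strongest signals of the WT library. A single region of 6893 bp, from 45888316 to 45895208, had a fold enrichment of 36.6 and rank 8 of 102674. In SHP-1 KO cells the region ran from 45888388 to 45894766, had a fold enrichment of 15.5 and rank 450 of 81012. The SHP-1 KO to WT ratio was 0.423, a log2 difference of -1.24, and 107 of the 10870 genes had a ratio as low or lower (0.984%, IGFBP1 included). Relative to the median of all genes it was 0.452. The strongest WT signals gave low ratios as a group, since the other 19 genes among the first 20 of the WT phospho-Ser2 RPB1 list all had ratios below 1, from 0.102 to 0.960 with a median of 0.634, and 5 of them had a ratio below that of IGFBP1. These genes were picked by their WT values, so their ratios are a description. IGFBP1 was at least 1.5-fold lower in SHP-1 KO cells with both antibodies, as were 5.73% of the 9237 genes with regions in all 4 lists, and 0.520% were at least 2-fold lower with both, which IGFBP1 was not. Both antibodies were scaled by the same input library of each cell type, so the pair of ratios is not independent.

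The summits of the antibodies lay at opposite ends of IGFBP1. For phospho-Ser2 RPB1 the summit was 323 bp past the gene end in WT cells and 26 bp past it in SHP-1 KO, and the region reached 1548 and 1106 bp past the gene end. A phospho-Ser2 RPB1 summit past the end of the assigned transcript was found for the strongest region of 36.9% of the 12740 genes in the WT list and 36.9% of the 11433 genes in the SHP-1 KO list. For RPB1 the summit of the strongest region lay within 500 bp of the transcript start in 68.9% of the genes of the WT list and 70.9% of those of the SHP-1 KO list. The sequence below is the 201 bases of hg38 around the WT phospho-Ser2 RPB1 summit at IGFBP1, chr7:45893883-45894083 on the forward strand, which overlaps no exon in GENCODE release 44. It is shown because the strongest elongation signal of the family lies there, in flanking DNA beyond the gene, and the capital marks the summit base.
IGFBP1 downstream summit: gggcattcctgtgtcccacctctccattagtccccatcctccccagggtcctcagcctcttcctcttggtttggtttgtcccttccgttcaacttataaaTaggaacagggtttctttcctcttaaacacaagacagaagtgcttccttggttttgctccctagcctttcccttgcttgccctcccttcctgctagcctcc

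**Figure D2:**
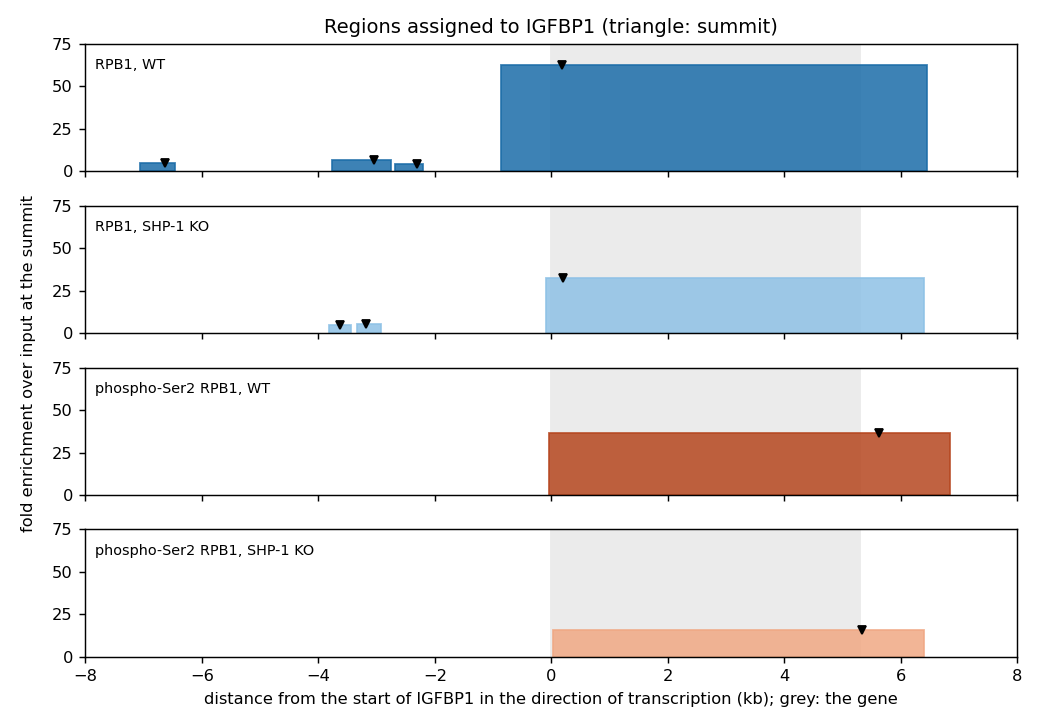
Regions assigned to IGFBP1 in the 4 libraries, drawn to scale by distance from the gene start (kb) with summit fold enrichment over input as height, the summit as a triangle and the gene in grey. The large regions cover all or, for phospho-Ser2 RPB1 in SHP-1 KO cells, 99.5% of the gene, with RPB1 summits near the gene start and phospho-Ser2 RPB1 summits at or past the gene end, and the SHP-1 KO regions are lower than the WT regions.

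Upstream of IGFBP1 there were weak RPB1 regions and no phospho-Ser2 RPB1 region. The WT list held 3 regions annotated as distal intergenic, with summits 6631, 3041 and 2305 bp before the gene start and fold enrichments of 5.09, 6.72 and 4.31. In SHP-1 KO cells there were 2, with summits 3625 and 3190 bp before the gene start and fold enrichments of 4.79 and 5.11. Both SHP-1 KO regions overlapped the WT region of fold enrichment 6.72, while the other 2 WT regions were overlapped by none. Of all WT RPB1 regions 61.9% were overlapped by a SHP-1 KO region. These upstream values lay near the median of their lists, 5.51 in WT cells and 5.62 in SHP-1 KO.

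The occupied genes around IGFBP1 had higher ratios than IGFBP1 with both antibodies. Within 1 Mb on either side, without regions assigned to IGFBP1, the lists held 14 RPB1 regions in WT cells and 15 in SHP-1 KO, and 14 and 15 phospho-Ser2 RPB1 regions. The 4 flanking genes with an RPB1 region in both lists had SHP-1 KO to WT ratios from 0.698 to 1.19, all above the 0.519 of IGFBP1. The 2 flanking genes with a phospho-Ser2 RPB1 region in both lists had ratios of 0.750 and 0.866, against 0.423 for IGFBP1.

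Among 9237 genes with regions in all 4 lists, those closest to IGFBP1 in the percentiles of their strongest regions over the 4 libraries were PSPH (distance 4.07 percentile points), ZFP36L1 (4.33) and SIVA1 (4.43). PSPH, an enzyme of serine synthesis, had RPB1 fold enrichments of 57.3 in WT cells and 33.3 in SHP-1 KO, close to the 62.6 and 32.5 of IGFBP1. Its phospho-Ser2 RPB1 fold enrichments were 16.5 and 15.4, so the nearest gene by rank had a much lower WT phospho-Ser2 RPB1 level than the 36.6 of IGFBP1. ZFP36L1, an RNA-binding protein that promotes mRNA decay, had 63.8 and 33.2 for RPB1 and 15.0 and 15.7 for phospho-Ser2 RPB1. SIVA1, a regulator of apoptosis, had 58.4 and 31.5 for RPB1 and 18.3 and 26.1 for phospho-Ser2 RPB1. With 4 libraries this likeness is a description of ranks only.

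IGFALS, which encodes the acid-labile subunit, had RPB1 at its start at a similar level in both cells. In GENCODE release 44 the gene occupies chr16:1790413-1794971 (hg38, reverse strand). In WT cells the promoter region (chr16:1793397-1795349) reached a fold enrichment of 9.75, rank 13116 of 46045. In SHP-1 KO cells it (chr16:1794229-1795321) reached 10.6, rank 10778 of 41605. The ratio was 1.08, or 1.46 relative to the median of all genes, and 87.4% of genes had a ratio as low or lower. The WT region reached farther into the gene. In SHP-1 KO cells that part was occupied by a separate RPB1 region (chr16:1793386-1793716, fold enrichment 5.28). The authors assigned it to SPSB3, the next gene on the same strand, which starts at 1793700 inside IGFALS. Further WT RPB1 regions in the IGFALS gene were also assigned to SPSB3. They lay at 1790354 to 1790605 (fold enrichment 3.50) and 1791199 to 1791433 (5.51).

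The phospho-Ser2 RPB1 regions assigned to IGFALS were weaker than that of IGFBP1 and lay mostly before the gene. A further WT region inside the gene (chr16:1791316-1791544, fold enrichment 3.56) was assigned to SPSB3. For the 5 regions assigned to IGFALS, fold enrichments ran from 2.69 to 5.37 in WT cells and from 2.85 to 4.71 in SHP-1 KO cells. The strongest gave a ratio of 0.877, against a median of 0.936 over all genes. The strongest WT region, from 1801595 to 1802901, had its summit 7731 bp before the gene start. The strongest SHP-1 KO region, from 1794606 to 1794993, had its summit 213 bp after the gene start, so these values come from different positions. At the WT position the SHP-1 KO list held a pair of regions with fold enrichments of 4.71 and 3.56. At the gene start the WT region chr16:1794684-1794883 had a fold enrichment of 2.69, against 4.71 for the SHP-1 KO region that overlapped it. The SHP-1 KO value was thus more than 1.5-fold higher there, but the WT region was a weak call (list percentile 8.23, −log10 q 2.29). Another WT promoter region, with its summit 432 bp before the gene start, had a fold enrichment of 3.30. Against that value the SHP-1 KO value was less than 1.5-fold higher. The share of all genes with such a difference at matched positions was not computed. At the strongest WT position before the gene the difference was less than 1.5-fold, each value from 1 library.

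Apart from 1 WT phospho-Ser2 RPB1 region next to the start, the regions wholly before IGFALS were annotated in intron 8 of a transcript of HAGH, a glyoxalase gene that spans 1795620 to 1827157 on the same strand. In WT cells 3 RPB1 regions lay there, with fold enrichments of 4.01, 6.01 and 4.46 and list percentiles of 17.1, 56.0 and 26.0. None of them was overlapped by an RPB1 region of the SHP-1 KO list, where 61.9% of all WT RPB1 regions were. ChIP-seq does not tell strands or transcripts apart, so regions assigned to IGFALS by the nearest start can hold polymerase on HAGH.

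**Figure D3:**
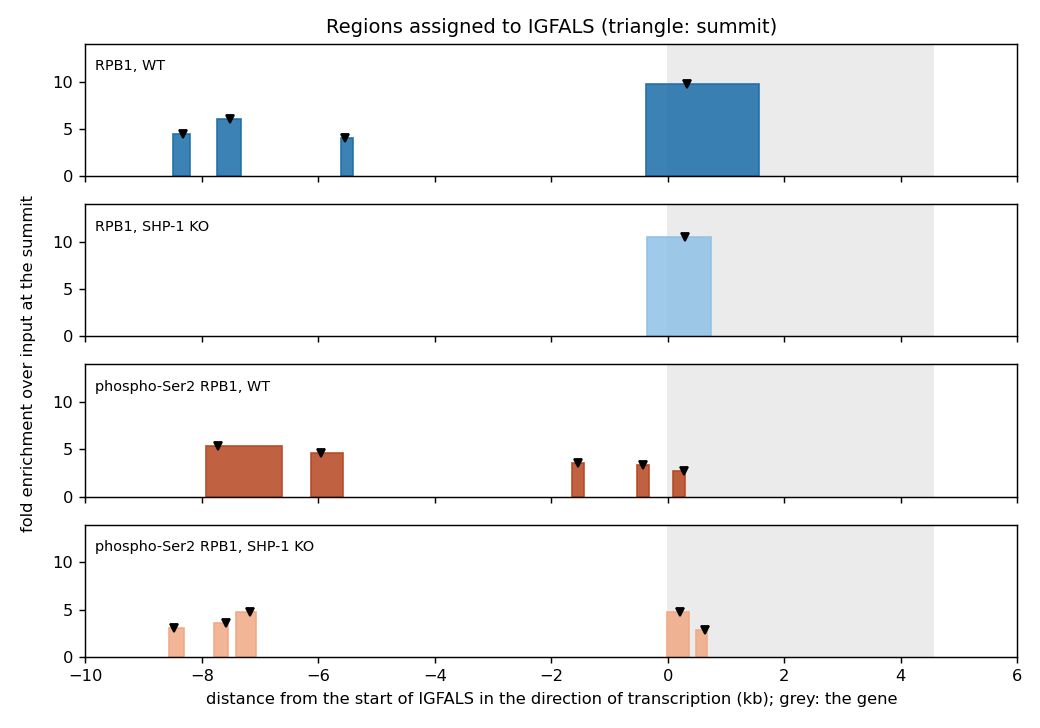
Regions assigned to IGFALS in the 4 libraries, drawn to scale by distance from the gene start (kb) in the direction of transcription, with summit fold enrichment over input as height, the summit as a triangle and the gene in grey. The RPB1 region at the start stands at 9.75 in WT cells and 10.6 in SHP-1 KO, and the group of regions more than 5 kb before the gene lies in an intron of HAGH.

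The promoter of IGFALS held a STAT motif under these RPB1 regions. The motif TTCNNNGAA, which reads the same on both strands, was found 40 bp before the RefSeq start of IGFALS and in none of the other 7 member promoter windows, against 7.66% of 35116 RefSeq promoter windows of 300 bases (250 before to 50 after the start, GRCh38.p14). The letters of this and the other motifs below were chosen with the sequences in view. The 30 bases around it, chr16:1794929-1794958 on the reverse strand, are shown because STAT5 is the factor that the study follows, and the capitals mark the motif. They lie within the RPB1 regions of both cell types and overlap 1 exon in GENCODE release 44. The match is a string of letters and not a measured binding site.
IGFALS STAT motif: gatctataatTTCTCAGAAgaggagccgag

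IGFBP4, which encodes an inhibitory binding protein, had RPB1 at its start in both cells and no phospho-Ser2 RPB1 region in either. In GENCODE release 44 it occupies chr17:40443450-40457725 (hg38, forward strand). The WT region (chr17:40443310-40444039) had a fold enrichment of 12.4, rank 11370 of 46045, with the summit 46 bp after the gene start. The SHP-1 KO region (chr17:40443333-40443858) had a fold enrichment of 13.8, rank 8757 of 41605, with the summit 65 bp after the gene start. The ratio was 1.11, a log2 difference of 0.15 that became 0.59 relative to the median of all genes, and 88.7% of genes had a ratio as low or lower. The regions covered 4.13% and 2.86% of the gene, unlike those of IGFBP1. The nearest phospho-Ser2 RPB1 region was 28144 bp away in WT cells and 29193 bp away in SHP-1 KO.

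The 250 bases before the RefSeq start of IGFBP4, chr17:40443200-40443449 on the forward strand of GRCh38.p14, are shown as the promoter on which both RPB1 regions begin. The capitals mark the TATA box letters TATAAA, whose first base lies 29 bp before the start. The same letters on either strand occur in 11.5% of all promoter windows and in none of the other 7 member windows.
IGFBP4 promoter: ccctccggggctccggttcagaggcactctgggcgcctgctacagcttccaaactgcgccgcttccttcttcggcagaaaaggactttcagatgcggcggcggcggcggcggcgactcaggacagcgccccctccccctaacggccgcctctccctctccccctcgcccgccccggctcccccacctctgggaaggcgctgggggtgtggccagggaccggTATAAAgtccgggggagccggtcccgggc

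IGFBP6, whose product prefers IGF2, likewise had RPB1 near its start and no assigned phospho-Ser2 RPB1 region. In GENCODE release 44 it occupies chr12:53097436-53102345 (hg38, forward strand). The WT region (chr12:53097453-53098345) was 893 bp long, with a fold enrichment of 11.2 and rank 12064 of 46045. The SHP-1 KO region (chr12:53097952-53098159) was 208 bp long, with a fold enrichment of 6.56 and rank 16388 of 41605. The ratio was 0.588, or 0.793 relative to the median of all genes, and 22.4% of genes had a ratio as low or lower. The WT region overlapped the RefSeq promoter window of IGFBP6 and the SHP-1 KO region did not.

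At the end of IGFBP6 a further RPB1 region, assigned by the authors to the neighbouring SOAT2, overlapped the gene. Its fold enrichment was 7.52 in WT (53102107 to 53102714) and 3.51 in SHP-1 KO cells (53102214 to 53102739). A phospho-Ser2 RPB1 region of fold enrichment 4.41, also assigned to SOAT2, began 15 bp past the gene end in WT cells, whereas the nearest in SHP-1 KO cells was 13665 bp away. The RPB1 regions span the end of IGFBP6 and the WT phospho-Ser2 RPB1 region lies between it and the start of SOAT2 at 53103486, so none of them can be given to either gene from its position. The phospho-Ser2 RPB1 region nearest in SHP-1 KO cells (chr12:53116010-53116258) lies inside SOAT2.

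The promoter window of IGFBP6 held the letters GTAAACA, searched here as a FOXO motif and not a measured binding site. Their first base lay 186 bp before the RefSeq start. They occur on either strand in 3.42% of all promoter windows and in none of the other 7 member windows. The 30 bases around them, chr12:53097470-53097499 on the forward strand of GRCh38.p14, lie inside the WT RPB1 region and outside the SHP-1 KO region, which is why they are shown, with the letters in capitals. They were thus picked for this position, and lying outside a called region does not show that polymerase was absent. These 30 bases overlap 1 exon in GENCODE release 44. No promoter sequence is shown for IGFBP1.
IGFBP6 FOXO motif: caatttgggaaGTAAACAgaaactggaaag

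At least 1.5-fold lower RPB1 fold enrichment in SHP-1 KO cells was found for 2 of the 4 members with regions in both lists, IGFBP1 and IGFBP6, where 36.1% of all genes were lower by as much. None of the 4 was at least 1.5-fold higher, where 2.68% of all genes were. Divided by the median ratio of all genes, 0 of the 4 were lower and 1, IGFBP4, was higher, so these RPB1 counts depend on the scaling. For phospho-Ser2 RPB1 1 of 2 members, IGFBP1, was at least 1.5-fold lower, against 11.7% of all genes, and 0 of 2 were higher, against 5.71%. At a 2-fold threshold no member was lower or higher for RPB1, where 10.3% of all genes were lower and 0.854% higher. For phospho-Ser2 RPB1 IGFBP1 stayed the 1 member past it, where 2.30% of all genes were lower and 1.07% higher. No member had regions of one antibody in only one of the cell types. Among all genes 9.09% of those with a WT RPB1 region had none in SHP-1 KO cells and 14.7% of those with a WT phospho-Ser2 RPB1 region had none there, while 4.32% and 4.92% of the genes with a SHP-1 KO region had none in WT cells.

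**Figure D4:**
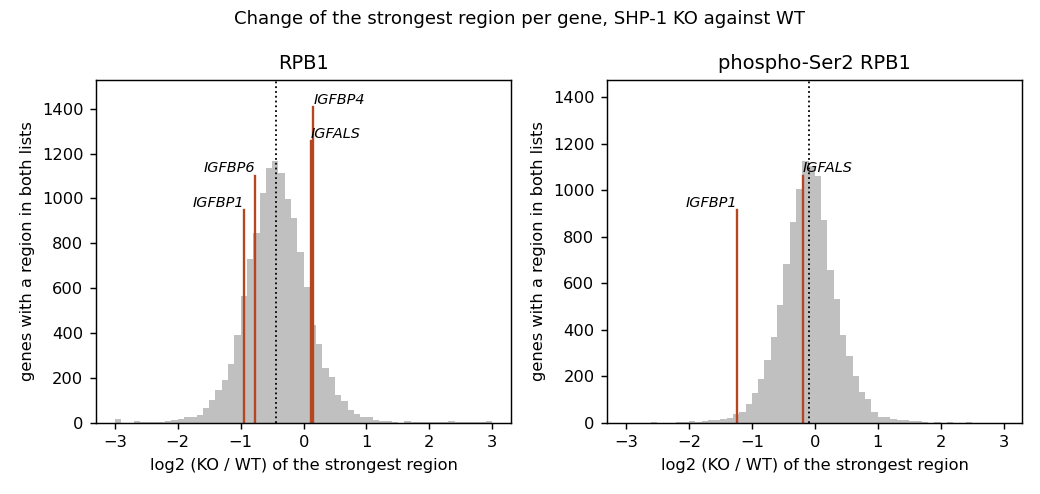
Histograms of the log2 ratio of SHP-1 KO to WT of each gene's strongest region, for 12877 genes (RPB1) and 10870 genes (phospho-Ser2 RPB1), with the most extreme values drawn in the end bins. Dotted lines mark the medians and red lines the members, and IGFBP1 lies at -0.95 within the RPB1 distribution and at -1.24 at the lower edge of the phospho-Ser2 RPB1 distribution.

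Of the 10 WT RPB1 member regions, 5 were overlapped by a SHP-1 KO RPB1 region (50.0%, 95% Wilson confidence interval 23.7 to 76.3), against 61.9% of all WT RPB1 regions. Each of the 6 SHP-1 KO regions had a WT partner (95% Wilson confidence interval 61.0 to 100), against 74.9% of all. For phospho-Ser2 RPB1, 3 of 6 WT member regions were overlapped by a SHP-1 KO region (50.0%, 18.8 to 81.2), against 52.2% of all, and 5 of 6 SHP-1 KO regions had a WT partner (83.3%, 43.6 to 97.0), against 69.9% of all. The intervals cover counting error only, and several of these regions are neighbours at 1 gene and not independent. The WT regions without a match were at IGFBP1 upstream and at IGFALS, with fold enrichments from 3.30 to 6.01.

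RPB1 without phospho-Ser2 RPB1 was found at 2 of the 4 occupied members, IGFBP4 and IGFBP6, in both cell types, by the genes the authors assigned. At IGFBP6 in WT cells this rests on the assignment to SOAT2 of the phospho-Ser2 RPB1 region 15 bp past the gene end. Among all genes with an RPB1 region, 23.0% in WT cells and 26.6% in SHP-1 KO had no phospho-Ser2 RPB1 region assigned. By the percentile of their strongest RPB1 region among genes, the occupied members ran in WT cells from IGFBP1 at 95.03 over IGFBP4 at 30.2 and IGFBP6 at 27.7 to IGFALS at 24.8. In SHP-1 KO cells IGFBP1 was at 82.5, IGFBP4 at 40.6, IGFALS at 30.7 and IGFBP6 at 16.8. IGFBP1 stood far above the others in both cells, and the order of the lower 3, which lay close together in WT cells, changed.

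IGFBP2, IGFBP3 and IGFBP5 had no region of either antibody in the gene or within 3 kb before its start. IGFBP3 lies beside IGFBP1 on chromosome 7 (45912245 to 45921874, reverse strand), end to end with it, and in every list its nearest region was that of IGFBP1, 17037 to 17490 bp away. IGFBP2 (216632828 to 216664436, forward strand) and IGFBP5 (216672105 to 216695549, reverse strand) form a like pair on chromosome 2. Their nearest regions were assigned to RPL37A, at distances from 118325 to 122850 bp for IGFBP2 and from 157602 to 162127 bp for IGFBP5. The absence of a region means that none passed the peak calling, and at an unknown depth it does not show that the signal was 0.

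Other genes of the IGF axis, a list of 23, were occupied at 13 genes by RPB1 in both cells, the same 13 in each. Of these 13 genes, 1 (IGF2R) was at least 1.5-fold lower in SHP-1 KO cells and 0 higher, where 36.1% and 2.68% of all genes were. Their median ratio was 0.961, against 0.742 for all genes. Among the ligands, IGF1 and INS had no region and IGF2 had RPB1 fold enrichments of 49.1 in WT cells and 66.3 in SHP-1 KO. IGF2 was the 1 listed gene with phospho-Ser2 RPB1 at least 1.5-fold higher, 8.13 in WT cells and 26.9 in SHP-1 KO, a ratio of 3.30 where IGFBP1 had 0.423. For IGF2 there were 3 phospho-Ser2 RPB1 regions in WT cells and 1 in SHP-1 KO, and their positions were not compared. Of the receptors, IGF2R, which clears IGF2, had RPB1 fold enrichments of 59.7 and 31.2, a ratio of 0.522 close to that of IGFBP1. IGF1R had 24.5 and 22.8, and INSR, the insulin receptor, had 40.4 and 39.7. The adaptor IRS1 had 22.0 and 14.7, a ratio of 0.669 that is just short of a 1.5-fold difference, and IRS2 had no region.

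The proteases and their inhibitors, including PAPPA, PAPPA2, STC1, HTRA1 and ADAMTS1, had no region apart from STC2, an inhibitor of PAPPA, with RPB1 fold enrichments of 80.9 and 99.96. The related binding protein IGFBP7 had none, and IGFBPL1 had 6.23 and 6.31 at regions outside its promoter. For phospho-Ser2 RPB1 IGFBPL1 was the 1 listed gene with regions in one cell type only, 0 in WT cells and 5 in SHP-1 KO, the strongest at 4.08. In the growth hormone arm GHR had no region. JAK2 had RPB1 fold enrichments of 32.9 and 32.5, STAT5A 8.48 and 8.14, and STAT5B 43.8 and 35.7. The transcription factors of the list had 45.1 and 46.5 (FOXO1), 56.7 and 45.2 (FOXO3) and 25.6 and 19.8 (HNF4A). For phospho-Ser2 RPB1 12 listed genes had regions in both cells. Of these, 2 were at least 1.5-fold lower, JAK2 (ratio 0.643) and HNF4A (0.572), against 11.7% of all genes. Higher by as much was 1, IGF2, against 5.71% of all genes. The median ratio was 0.974, against 0.936 for all genes.

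**Figure D5:**
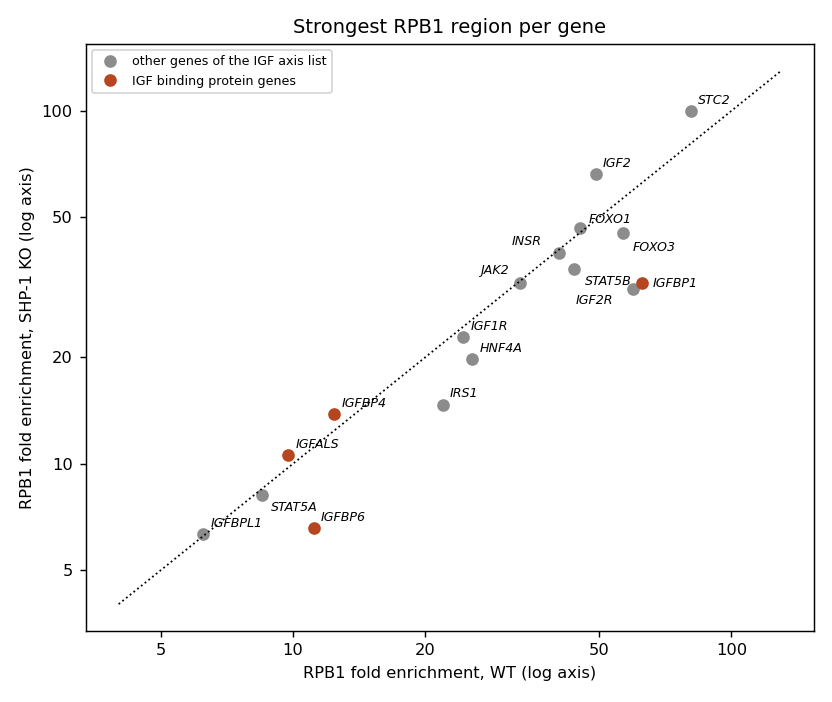
RPB1 fold enrichment over input of the strongest region per gene in WT (x axis) and SHP-1 KO cells (y axis), both log axes, for 4 IGF binding protein genes (red) and 13 other genes of the IGF axis list (grey), with equality as a dotted line. IGFBP1 (62.6 and 32.5) lies below the line beside IGF2R (59.7 and 31.2), and IGFBP4 and IGFALS lie just above it.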

How the data were processed

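ChIP-seq regions of RPB1 and phospho-Ser2 RPB1 were analysed in HepG2 cells with and without SHP-1, with 1 library per group, and 2 input libraries were not used here. The authors used Trimmomatic for trimming, BWA for alignment to hg38 and MACS2 for narrow peaks, called per library with the matching input as control. Their versions are not given in the sources used here. The lists the authors deposited give the fold enrichment at the summit, a ratio, and the −log10 p and −log10 q per region, with an annotation and nearest gene. A deposited table of the authors' own KO against WT comparison (window counts, p-values) was not used.

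Regions were ranked within each list by fold enrichment. A gene's level was that of its strongest assigned region, and a 1.5-fold ratio in either direction was counted as a difference. Lists were compared by an overlap of at least 1 bp. All 271336 regions lay within hg38 chromosome lengths, and 6 of 6 member transcripts named in the lists were found in GENCODE release 44. RefSeq promoter windows (GRCh38.p14) were found for 6 of 7 members, as 8 windows. Motif letters were chosen with these sequences in view. Functions were tested on simulated data. The genes named are the 7 members, the listed IGF axis genes and the 3 genes nearest in rank, besides neighbours and PTPN6, named after their values were seen. One gene of the IGF axis list is not reported here and was left out of its counts. Members and lists were chosen with earlier results of these data known. Python 3.11.15, pandas 2.3.3, NumPy 2.4.6, SciPy 1.17.1 and matplotlib 3.10.9 were used. Alternatives were a −log10 q of at least 5, a window from 3 kb upstream to the gene end, other region classes, a 50% reciprocal overlap, other gene measures, scaling by the median ratio and a 2-fold threshold.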

Additional observations from a re-analysis of the deposited data

How the results depend on the processing

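Of 69 values recomputed under alternatives, 58 stayed within 1.5 times the reported value, or within its Wilson interval for shares, and none of the called ratios changed direction. Division by the median ratio (0.742 or 0.936) could not move a single ratio by 1.5-fold, and the Wilson intervals are wide. Counting distinct intervals and picking the strongest region by −log10 q returned the reported values. Direction was checked only for called ratios, so the RPB1 ratio at IGFALS, 1.08 as reported and 0.486 by the sum below, was not counted as reversed. No paired analysis was possible because each group holds 1 library, and no replicate could be left out. With a −log10 q of at least 5, 3 phospho-Ser2 RPB1 member regions passed in each cell type, and by position instead of symbol 3 were counted in SHP-1 KO cells. Divided by the median ratio of all genes, 0 members were lower and 1, IGFBP4, was higher for RPB1, whereas with a 2-fold threshold 0 were lower. With the sum of fold enrichment times length, the RPB1 ratio was 0.137 at IGFBP6 and 0.486 at IGFALS, the phospho-Ser2 RPB1 ratio at IGFALS was 0.492, and 2 members were lower for phospho-Ser2 RPB1; this sum, by which the RPB1 ratio at IGFBP4 fell below 1 (0.802), grows with the number and length of called regions. With gene body regions only, 0 members were lower for phospho-Ser2 RPB1, since the IGFBP1 region is annotated as promoter. The IGFBP1 ratio ranged from 0.456 to 0.699 for RPB1 and from 0.392 to 0.452 for phospho-Ser2 RPB1. Unknown depth and single libraries limit all comparisons.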
